A study of Mus musculus with 9 samples.

Results

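The 8 genes described here are Rgs1, Rgs2, Rgs3, Rgs10, Rgs12, Rgs14, Rgs18 and Rgs19, which encode regulators of G-protein signalling. They are 8 of the 38215 genes in the deposited count table and were found there by symbol. Rgs12 was selected on its CPM in these same libraries, which was higher with sgZrsr2 than with EV, and the others were taken as its family. The difference of Rgs12 between the groups is therefore given as a description, with no test. All 8 genes passed the filter on low counts, which left 14944 genes for testing.

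RNA was sequenced from bone marrow cells of C57BL/6J mice, sorted at the terminal time point for GFP and mCherry together with the LSK surface markers, that is, Kit and Sca1 without lineage antigens. Blood stem cells and early progenitors lie in this fraction. All 9 libraries come from mice with the genotype Jak2V617F, a mutation that keeps the kinase Jak2 active and drives myeloproliferative neoplasms, and all mice had received tamoxifen. The 5 libraries titled EV (an abbreviation left unexplained by the submitters) carry no further genotype. The other 4 have the genotype Jak2V617F-sgZrsr2 and are described by the submitters as having lost Zrsr2, a splicing factor of the minor spliceosome. The titles number the mice 1 to 5 for EV and 1, 2, 3 and 5 for sgZrsr2. Ages, the driver of the mutant allele and the number of guides are not given in the sources used here, and neither is whether each number is a separate animal, so p-values measure the spread between these libraries.

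Heterotrimeric G proteins relay signals from receptors that span the membrane, such as the chemokine receptor Cxcr4. An alpha subunit is active while it holds GTP, and RGS proteins bind it through their RGS domain and speed the hydrolysis of GTP, which ends the signal. In blood cells they limit responses to chemokines, lipids, prostaglandins and thrombin. Rgs1, Rgs2 and Rgs18 are small proteins that hold little beyond the RGS domain, and Rgs3 exists in long and short forms. Rgs10, Rgs12 and Rgs14 form another subfamily, in which Rgs12 and Rgs14 also carry Ras-binding domains and a GoLoco motif that holds the inactive alpha subunit. Rgs19 belongs to the subfamily once called GAIP.

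Rgs12 spans 5:34949445-35039644 on the plus strand (GRCm38), and RefSeq lists 2 starts for it. The 250 bases upstream of each start are shown because the counts are sums over the whole gene and cannot tell transcripts from the 2 starts apart. The bases upstream of Rgs2 are shown beside them, since Rgs2 was among the members that varied most between libraries. Sequences are from RefSeq on GRCm38.p6 and read 5′ to 3′ on the strand of the gene. Capitals mark matches to the motifs searched, on both strands. The GC box was searched as GGGCGG and the CCAAT box by the letters of its name. The cAMP response element was searched as TGACGTCA, while the AP-1 site was taken to be any match to the letters TGANTCA. The GATA site was defined by its usual core with flanking letters, namely AGATAA. No pair of matches overlaps in the windows shown.
Rgs12, first start (chr5:34949198-34949447, plus strand): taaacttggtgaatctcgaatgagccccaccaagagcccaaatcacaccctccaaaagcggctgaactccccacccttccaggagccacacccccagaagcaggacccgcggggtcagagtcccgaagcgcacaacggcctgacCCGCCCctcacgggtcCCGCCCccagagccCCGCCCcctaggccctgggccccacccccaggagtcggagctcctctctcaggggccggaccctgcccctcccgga
Rgs12, second start (chr5:34998828-34999077, plus strand): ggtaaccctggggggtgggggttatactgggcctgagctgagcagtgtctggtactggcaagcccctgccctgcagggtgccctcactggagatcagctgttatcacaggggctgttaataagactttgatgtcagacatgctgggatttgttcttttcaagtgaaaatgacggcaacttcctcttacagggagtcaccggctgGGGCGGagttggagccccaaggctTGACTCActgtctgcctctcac
Rgs2 (chr1:144004150-144004399, minus strand): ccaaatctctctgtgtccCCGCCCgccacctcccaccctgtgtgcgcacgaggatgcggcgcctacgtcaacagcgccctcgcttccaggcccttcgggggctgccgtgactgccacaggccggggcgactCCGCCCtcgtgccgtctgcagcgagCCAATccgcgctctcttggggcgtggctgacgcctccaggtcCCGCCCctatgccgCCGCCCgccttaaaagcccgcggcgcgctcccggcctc

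The window before the first start of Rgs12 held 3 matches to the GC box and had a G and C content of 68.4%. That before the second start held 1 match to the GC box and 1 to the AP-1 site, at 55.6% G and C. The window of Rgs2 held 4 matches to the GC box and 1 CCAAT, at 72.4% G and C. Over 32851 windows of the same length, 32.74% held the GC box, 33.85% CCAAT, 6.749% the AP-1 site, 1.546% the cAMP response element and 9.988% the GATA site, and the median G and C content was 52.4%. No match to the cAMP response element or the GATA site lies in the 3 windows shown. Entries were found for 5 of the 8 genes.

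Levels are given as CPM, the count of a gene relative to the TMM-scaled total of its library. Rgs12 read 56.6, 50.4, 48.2, 45.3 and 62.4 CPM across EV mice 1 to 5. Across sgZrsr2 mice 1, 2, 3 and 5 it read 75.2, 73.1, 70.7 and 78.9 CPM. All 4 sgZrsr2 libraries lay above all 5 EV libraries, and the nearest were EV mouse 5 and sgZrsr2 mouse 3. The EV mean was 52.6 ± 6.90 CPM (SD, n = 5) and the sgZrsr2 mean 74.5 ± 3.49 CPM (SD, n = 4), a log2 fold change of 0.50 (SE 0.11) in edgeR, or 1.42-fold. Each library held 1546 to 2906 counts of Rgs12, whole numbers in all 9. Rgs12 was the 1 member of 8 whose groups did not overlap in this direction, as was so for 1.75% of all genes tested (1.32% in the other direction and 3.06% in either). This separation is what the gene was chosen for. Over all genes the non-overlapping ones split into 261 higher and 197 lower, and into 204 higher and 244 lower with upper-quartile scaling. In bulk RNA, more transcript per cell and more cells of a type that expresses the gene cannot be told apart.

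Leaving out each library in turn gave log2 fold changes of Rgs12 between 0.45 (without EV mouse 4) and 0.57 (without EV mouse 5). Since the gene was chosen for groups that lie apart, their direction in these fits was set by that choice. EV mouse 5 and sgZrsr2 mice 3 and 5 differed from the other libraries in Vwf and Car1, with Vwf at 53.2, 91.1 and 85.3 CPM against at most 11.4 CPM elsewhere. In the sums of the megakaryocyte and erythroid lists EV mouse 5, at 938 and 584 CPM, lay below EV mouse 3, at 1177 and 631 CPM. The largest parts in EV mouse 3 were Plek and Selp (434 and 270 CPM) and, of the erythroid list, Tfrc (486 CPM). In EV mouse 5 these were at 191, 78.7 and 217 CPM. Vwf, Gp5 and Itga2b were instead higher in EV mouse 5 (53.2, 17.9 and 199 CPM) than in EV mouse 3 (4.65, 1.09 and 149 CPM). The sums alone therefore do not rank EV mice 3 and 5 in these cell types. Without EV mouse 5 and sgZrsr2 mice 3 and 5 the log2 fold change of Rgs12 was 0.57. The summed level of the 19 megakaryocyte and platelet markers tested ran from 664 to 1177 CPM with EV and from 928 to 1263 CPM with sgZrsr2, and 17 of the 19 had a log2 fold change above 0. The summed level of the 9 mast cell, basophil and eosinophil markers tested ran from 230.1 to 444 CPM with EV and from 354 to 581 CPM with sgZrsr2, with 8 of 9 above 0. Gata2, which is also in the LSK list, made up most of each of these sums. It was at 176 to 301 CPM with EV and at 279 to 376 CPM with sgZrsr2. Erythroid markers summed to 455 to 631 CPM in EV and 438 to 824 CPM in sgZrsr2 libraries, and 12 of 13 had a log2 fold change above 0 (median 1.40). The sums of sgZrsr2 mice 1 and 2 (503 and 438 CPM) did not exceed the EV range. Klf1, like Car1, was raised in the 3 libraries named above (8.81, 14.3 and 12.3 CPM, at most 1.75 CPM elsewhere). Hbb-bt was instead highest in sgZrsr2 mice 1 and 2. Genes that rise together in these libraries, Vwf among them, enter such counts singly. The megakaryocyte sums of sgZrsr2 mice 1 and 2, 991 and 928 CPM, lay within the EV range. The counts of erythroid and megakaryocyte genes above 0 do not say how many sgZrsr2 libraries were shifted, which was not tested. B cell markers summed to 174 to 4629 CPM with EV and 555 to 2798 CPM with sgZrsr2, and 0 of 12 had a log2 fold change above 0 (median -1.004). The sum of 4629 CPM was that of EV mouse 5, and the other EV libraries were at 1474 CPM or less. The median of the sums was 613 CPM over the EV and 1029 CPM over the sgZrsr2 libraries, so the direction depended on EV mouse 5. Of the LSK markers 11 of 14 were above 0 (median 0.17), with sums of 1914 to 2507 CPM and 2298 to 2736 CPM. Meis1, a transcription factor of stem cells, was the 1 of these 14 whose groups did not overlap (126 ± 11.4 and 151 ± 12.7 CPM). Over all genes tested, 1.75% were higher with sgZrsr2 without overlap. The part of these lists in the difference of Rgs12 was not tested. Of the megakaryocyte and mast cell lists, Gp6 had 2 counts, Mcpt4 4 counts and Tpsb2 12 counts over the 9 libraries together. Other genes of both lists were present: Nfe2 had 65338, Itga2b 63348 and Gata2 85416 counts.

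Rgs12 had a narrow spread within the groups, a trait that choosing a gene for groups that lie apart favours, so it is a description. Its coefficient of variation was 13.1% over the EV and 4.68% over the sgZrsr2 libraries, and its biological coefficient of variation in the fit, 0.142, was above that of 8.12% of the genes tested. The genes next to it that passed the filter were A930005I04Rik (25606 bp away, log2 fold change 0.12, SE 0.26) and Hgfac (1909 bp away, 0.15, SE 0.36). Both lay at low levels, 1.69 ± 0.260 CPM for A930005I04Rik and 0.930 ± 0.218 CPM for Hgfac with EV. The difference of neither was larger than its error. The microRNA gene Mir3097, inside Rgs12, had 0 counts in all libraries, and precursors of this kind are not captured well in polyadenylated RNA.

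**Figure D1:**
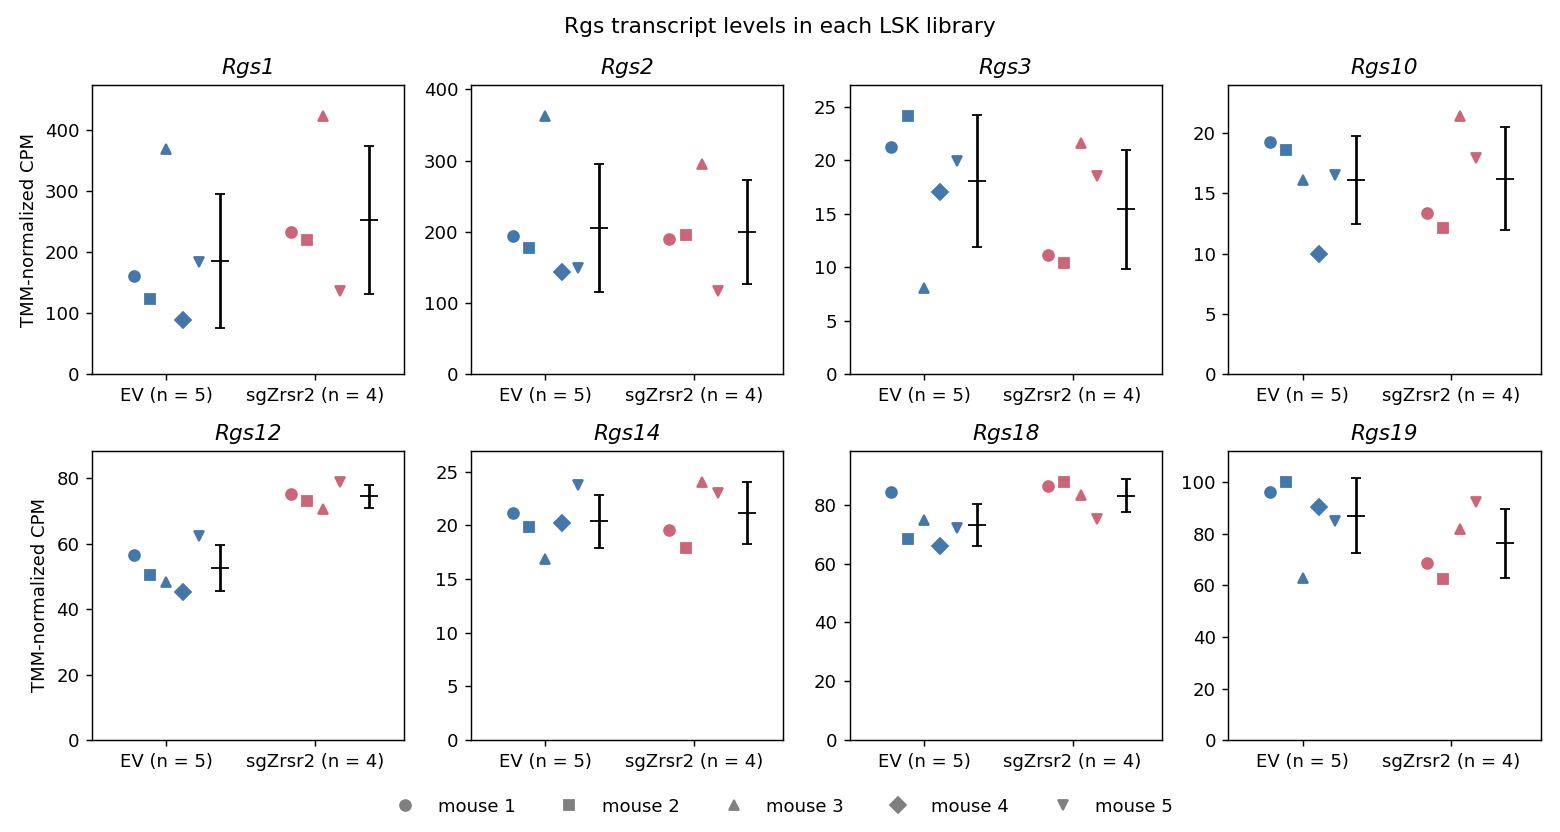
Level of each of the 8 Rgs genes in TMM-normalized CPM (y axis, from 0) in the EV and sgZrsr2 libraries (x axis); the symbol gives the mouse number, and the black bar gives the mean ± SD. All 4 sgZrsr2 libraries lie above the 5 EV libraries for Rgs12 (70.7 to 78.9 against 45.3 to 62.4 CPM), and in the other 7 panels the groups overlap.

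Of the 10796 genes that averaged 5 CPM or more, the 5 whose log2 CPM followed Rgs12 most closely over the 9 libraries were Nr2c2 (Pearson's r = 0.971), Casp2 (0.970), Dpf2 (0.964), Fam126a (0.957) and Casc3 (0.954). Nr2c2 encodes an orphan nuclear receptor, Casp2 a caspase, Dpf2 a subunit of BAF chromatin remodelling complexes and Casc3 a core protein of the exon junction complex. Their log2 fold changes were 0.49, 0.39, 0.26, 0.34 and 0.21 in the same order, and the groups did not overlap in any of the 5. Likeness to a gene that was chosen because it separates the groups favours genes that separate them too, so these values are a description.

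Of the 7 Rgs genes that were tested, which leave out Rgs12, none passed an adjusted p of 0.05 between the groups. In edgeR's quasi-likelihood test with Benjamini-Hochberg adjustment over all 14944 genes, 0 of the 7 tested passed, where 0% of all genes did. At an unadjusted p under 0.05 the count was 0 of 7 as well, where 6.85% of all genes passed (3.87% higher and 2.98% lower with sgZrsr2). The DESeq2 Wald test called 0 of the 7 and 0.107% of all genes. The comparison thus gives sizes and errors for these 7 genes, and their standard errors of 0.10 to 0.41 on the log2 scale set what could be seen.

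Rgs18, best known from megakaryocytes and platelets, read 84.5, 68.3, 75.04, 66.0 and 72.3 CPM across EV mice 1 to 5 and 86.5, 87.9, 83.4 and 75.1 CPM across sgZrsr2 mice 1, 2, 3 and 5. All 4 sgZrsr2 libraries were above the EV median, and the groups overlapped through EV mouse 1. The means were 73.2 ± 7.21 and 83.2 ± 5.71 CPM (SD, n = 5 and 4), a log2 fold change of 0.18 (SE 0.10; edgeR adjusted p = 0.714, unadjusted p = 0.0989). Without EV mouse 1 the groups no longer overlapped and the log2 fold change was 0.24 (edgeR unadjusted p = 0.0383, adjusted p = 0.668). In that fit the groups lay apart, with sgZrsr2 higher, for 2.74% of all genes tested. Nfe2, a transcription factor of platelet formation, was the 1 of 19 megakaryocyte genes tested whose groups did not overlap (189.5 ± 15.9 and 233 ± 16.9 CPM). Over all genes tested, 1.75% were higher with sgZrsr2 without overlap. Of the 19 megakaryocyte genes, 17 had a log2 fold change above 0, but they did not all follow Rgs18 over the libraries. In sgZrsr2 mice 1 and 2, the highest libraries of Rgs18, Pf4 was at 0.979 and 1.64 CPM and Selp at 222 and 229 CPM. In sgZrsr2 mouse 5, Pf4 was at 37.4 CPM and Selp at 125 CPM. The part of these genes in the value of Rgs18 was not tested. Rgs18 had the smallest ratio of its highest to its lowest library of the 8 genes, 1.33. Klhl6 (r = 0.931), a gene known from B cells, was among the genes most like it over the 9 libraries.

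Rgs1, an inhibitor of chemokine-driven migration in lymphocytes, read 161, 124, 370.2, 88.5 and 184 CPM across EV mice 1 to 5. Across sgZrsr2 mice 1, 2, 3 and 5 it read 234, 220.0, 424 and 137 CPM. The highest library of each group was mouse 3, and the other libraries of the 2 groups overlapped between 137 and 184 CPM. The means were 185 ± 109 and 254 ± 121 CPM (SD, n = 5 and 4), a log2 fold change of 0.45 with an SE of 0.41 (edgeR adjusted p = 0.786), so the error was nearly as large as the difference. Single libraries set its size: leaving out EV mouse 3 gave 0.86 (edgeR unadjusted p = 0.0263, adjusted p = 0.661), leaving out sgZrsr2 mouse 3 gave 0.09, and leaving out both gave 0.49.

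Rgs2, which acts mainly on alpha subunits of the Gq type, read 195, 177, 363, 144 and 149.5 CPM across EV mice 1 to 5 and 190.1, 195, 295 and 116 CPM across sgZrsr2 mice 1, 2, 3 and 5. Mouse 3 was again the highest library of each group, and the lowest of all was sgZrsr2 mouse 5. The means were 206 ± 90.2 and 199 ± 73.4 CPM (SD, n = 5 and 4) and the log2 fold change was -0.04 (SE 0.31; edgeR adjusted p = 0.976). Its sign turned under scaling by library totals alone (0.02), and without EV mouse 3 it was 0.26. Rgs1 and Rgs2 varied more than any other member, 4.79-fold and 3.11-fold between the lowest and the highest library.

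Rgs1 and Rgs2 are neighbours, at 1:144243972-144249242 and 1:143999338-144004161, both on the minus strand and 239811 bp apart. Rgs18 lies 503441 bp beyond Rgs1 on the same strand, at 1:144752683-144775435, with no other tested gene between. EV mouse 3 and sgZrsr2 mouse 3 were the highest libraries of both Rgs1 and Rgs2, while the highest library of Rgs18 was sgZrsr2 mouse 2. Rgs13, which lies between Rgs2 and Rgs1 and is known from B cells and mast cells, had 0 counts in all 9 libraries. A count of 0 allows up to 0.129 CPM in the smallest library (3 counts, counting error only).

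The genes most like Rgs1 were Pld3 (r = 0.962) and Gpr171 (r = 0.939), the latter a G-protein-coupled receptor gene. Those most like Rgs2 were Spry1 (r = 0.953), an inhibitor of receptor tyrosine kinase signalling, and Klf6 (r = 0.936), a transcription factor gene induced by stimulation. Klf6 was at 673 CPM in EV mouse 3 and 442 CPM in sgZrsr2 mouse 3, and at 164 to 365 CPM in the other 7 libraries. A list of 22 immediate early genes, added after these values were seen, had its highest sum in EV mouse 3 (19227 CPM) but a sum of 12947 CPM in sgZrsr2 mouse 3, below the 13645 to 15823 CPM of EV mice 1 and 2 and sgZrsr2 mice 1 and 2. EV mouse 3 also had the lowest TMM factor, 0.894, against 0.967 to 1.07 in the other libraries. The part of these genes and of the scaling in the pattern of Rgs1 and Rgs2 was not tested.

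Rgs3, a regulator of alpha subunits of the Gi and Gq types, read 21.2, 24.1, 8.01, 17.03 and 19.95 CPM across EV mice 1 to 5 and 11.1, 10.4, 21.6 and 18.5 CPM across sgZrsr2 mice 1, 2, 3 and 5. Its low libraries were EV mouse 3 and sgZrsr2 mice 1 and 2, and the groups overlapped over most of their range. The log2 fold change was -0.23 (SE 0.32; edgeR adjusted p = 0.861), and it ran from -0.44 without sgZrsr2 mouse 3 to -0.08 without sgZrsr2 mouse 2. Without EV mouse 3 and sgZrsr2 mouse 3 together it was -0.63 (edgeR unadjusted p = 0.0231, adjusted p = 0.635), and without EV mouse 5 and sgZrsr2 mice 3 and 5 it was -0.70. Its expected counts were whole in 1 of the 9 libraries, so part of its reads was divided with another gene, and its level is less certain than those of the other 7, whose counts were whole in all 9. The genes most like Rgs3 were Ttc21b (r = 0.994) and Invs (r = 0.993), both genes of primary cilia.

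Rgs19 read 96.2, 100.2, 63.1, 90.3 and 85.1 CPM across EV mice 1 to 5 and 68.7, 62.5, 81.8 and 92.3 CPM across sgZrsr2 mice 1, 2, 3 and 5. The same 3 libraries as for Rgs3 were the lowest, EV mouse 3 and sgZrsr2 mice 1 and 2. The means were 87.0 ± 14.5 and 76.3 ± 13.4 CPM (SD, n = 5 and 4), a log2 fold change of -0.19 (SE 0.16; edgeR adjusted p = 0.768). These 3 libraries also had the lowest TMM factors, 0.894, 0.967 and 0.968, against 0.989 to 1.07 in the other 6. The smallest totals, 23238264 and 25857723 counts, were those of sgZrsr2 mice 1 and 2, while EV mouse 3 had 35909704. The part of composition or depth in these low values was not tested. Without EV mouse 3 the log2 fold change of Rgs19 was -0.29 (edgeR unadjusted p = 0.0546, adjusted p = 0.677). Tcea2, a gene of transcription elongation on the other strand, ends 348 bp from the end of Rgs19, and its log2 fold change was -0.03 (SE 0.16).

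Rgs10, the smallest protein of the Rgs12 subfamily, read 19.3, 18.6, 16.1, 10.01 and 16.6 CPM across EV mice 1 to 5 and 13.4, 12.2, 21.4 and 17.9 CPM across sgZrsr2 mice 1, 2, 3 and 5. The lowest library was EV mouse 4 and the highest sgZrsr2 mouse 3, so both groups spanned nearly the whole range. The means were 16.1 ± 3.67 and 16.2 ± 4.28 CPM (SD, n = 5 and 4), a log2 fold change of 0.01 (SE 0.23; edgeR adjusted p = 0.991). Without EV mouse 4 it was -0.12, and without sgZrsr2 mouse 3 it was -0.15. The most alike genes were Rasa4 (r = 0.984), a Ras GTPase activator gene, and Padi2 (r = 0.976), a peptidylarginine deiminase gene.

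Rgs14, the member closest to Rgs12 in its domains, read 21.2, 19.9, 16.9, 20.3 and 23.7 CPM across EV mice 1 to 5. Across sgZrsr2 mice 1, 2, 3 and 5 it read 19.5, 17.9, 24.1 and 23.04 CPM. The groups overlapped nearly throughout, at 20.4 ± 2.47 and 21.1 ± 2.89 CPM (SD, n = 5 and 4). The log2 fold change was 0.05 (SE 0.15; edgeR adjusted p = 0.932). The most alike genes were Nipa1 (r = 0.988) and Ndrg3 (r = 0.974), and for Rgs19 they were Rad50 (r = 0.984), a DNA repair gene, and Fads6 (r = 0.975). Whether Rgs12 differs from Rgs14 and Rgs10 in its response was not tested, since Rgs12 was chosen for its difference.

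**Figure D2:**
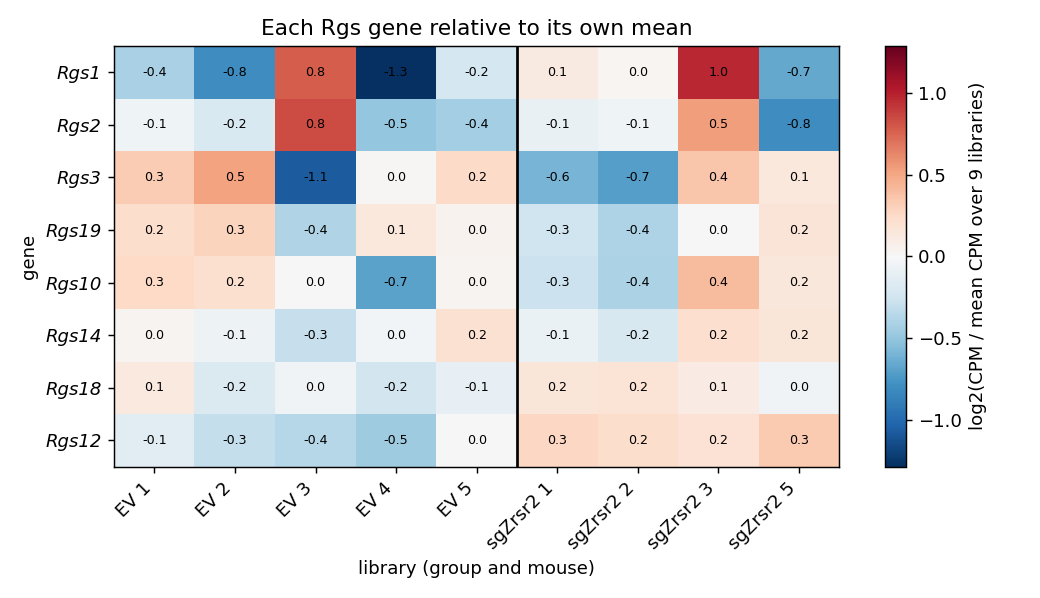
Level of each Rgs gene (rows) in each library (columns, EV left of the line and sgZrsr2 right) as log2 of its CPM over its own mean of the 9 libraries, printed in each cell and coloured red above and blue below the mean. Rgs1 and Rgs2 are highest in the mouse 3 library of each group, Rgs3 and Rgs19 are low in EV mouse 3 and sgZrsr2 mice 1 and 2, and Rgs18 and Rgs14 vary little.

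Levels of different genes were compared as CPM per kilobase of annotated exon. Rgs2 was the most abundant, at 55.9 ± 21.5 CPM per kb (SD, n = 9 libraries), followed by Rgs18 at 38.2 ± 3.99, Rgs19 at 36.9 ± 6.41 and Rgs1 at 31.1 ± 16.3 CPM per kb. Of these 4, Rgs2 was above Rgs18 in 8 of 9 libraries, but Rgs18 was above Rgs19 in only 4 of 9 and Rgs19 above Rgs1 in 5 of 9, so the order of the last 3 is not settled. Rgs10 (9.45 ± 2.15), Rgs12 (7.34 ± 1.496) and Rgs14 (4.89 ± 0.593 CPM per kb) lay lower, and Rgs3 was lowest at 1.56 ± 0.528 CPM per kb. Rgs1 was above Rgs10, Rgs12 above Rgs14 and Rgs14 above Rgs3 in 9 of 9 libraries, and Rgs10 above Rgs12 in 7 of 9. Among the genes tested that have an exon length, Rgs2 stood above 93.8%, Rgs12 above 55.7% and Rgs3 above 26.9%. With the length of the longest transcript in place of all exons, Rgs18 was above Rgs19 in 1 of 9 libraries.

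**Figure D3:**
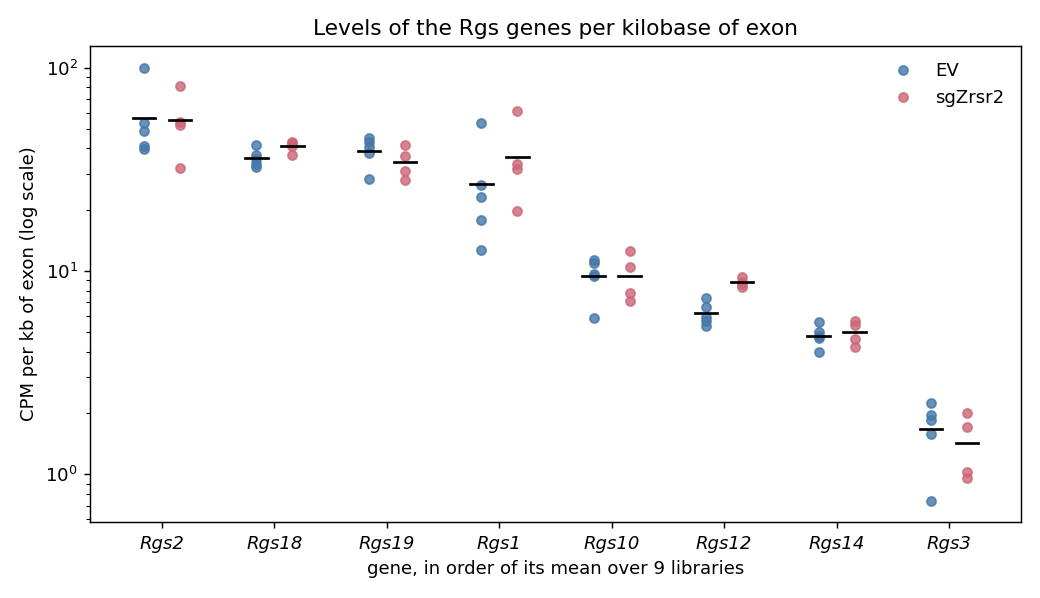
Level of each Rgs gene in CPM per kb of exon (y axis, log scale) in each EV (blue) and sgZrsr2 (red) library, with genes on the x axis in order of their mean over the 9 libraries; black lines give group means. The genes fall from Rgs2 (55.9) to Rgs3 (1.56 CPM per kb), and the points of Rgs18, Rgs19 and Rgs1 overlap.

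Summed per kilobase, the 8 genes were at 181 ± 35.8 CPM per kb with EV (range 143 to 238) and 191 ± 39.7 CPM per kb with sgZrsr2 (range 157 to 249), so the groups overlapped. Rgs2 made up 20.4% to 42.0% of this sum over the 9 libraries. The share of Rgs12 was 2.38% to 4.43% with EV and 3.35% to 5.92% with sgZrsr2, and the groups overlapped in this share through sgZrsr2 mouse 3, where the sum was highest.

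The rest of the family was at low levels. Of 16 other genes with Rgs in their symbol, 15 were in the table and 6 passed the filter: Rgs7bp, Rgs8, Rgs9, Rgs9bp, Rgs11 and Rgs16. The highest was Rgs8, known mainly from brain, at 5.95 ± 2.73 (EV) and 4.29 ± 2.02 CPM (sgZrsr2) (log2 fold change -0.47, SE 0.46). Rgs16, which is induced by inflammatory signals, was at 3.27 CPM in EV mouse 3 and at 0.306 to 1.40 CPM in the other 8 libraries. None of the 6 passed an unadjusted p of 0.05 in edgeR, and their median log2 fold change was -0.27 beside -0.01 over all genes tested. Without EV mouse 3 the median was 0.06. Rgs4, Rgs5, Rgs13 and Rgs22 had 0 counts in all libraries, Rgs6 and Rgs7 1 count each, Rgs17 4, Rgs20 8 and Rgsl1 28 counts over the 9 libraries. Rgs5 marks pericytes.

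Among the alpha subunits, on which RGS proteins act, 12 of 16 listed genes were tested. The most abundant per kilobase was Gnai2, the main Gi subunit of blood cells, at 652 ± 55.7 (EV) and 629 ± 35.8 CPM (sgZrsr2) (log2 fold change -0.05, SE 0.10). At an unadjusted p under 0.05 there was 1 gene of the 12, Gna14, a Gq-type subunit, which read 2.71, 2.39, 1.34, 2.75 and 2.33 CPM across EV mice 1 to 5 and 3.34, 4.12, 3.55 and 5.15 CPM across sgZrsr2 mice 1, 2, 3 and 5. Over all genes tested, 3.87% were higher at this p. Its groups did not overlap, its level was low, and it failed the adjusted threshold (log2 fold change 0.81, SE 0.27; edgeR unadjusted p = 0.0135, adjusted p = 0.714). Gna12, whose groups did not overlap either (2 of 12 genes, beside 1.75% of all genes tested), was at 106 ± 8.95 and 122 ± 16.5 CPM (log2 fold change 0.21, SE 0.11; edgeR unadjusted p = 0.0933). The highest EV library of Gna12, at 112.4 CPM, and its lowest sgZrsr2 library, at 112.9 CPM, nearly met. The median of the list was 0.20, with 8 genes above 0 and 4 below, beside a median of -0.01 over all genes tested, and it was 0.07 with the mouse number as a block.

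Of the beta and gamma subunits 13 of 17 listed genes were tested and 0 passed an unadjusted p of 0.05 in edgeR. Gnb2, the most abundant per kilobase, was at 370.4 ± 12.6 (EV) and 369 ± 13.05 CPM (sgZrsr2). The median log2 fold change was 0.05, with 8 genes above 0 and 5 below. The adenylyl cyclases, phospholipases C beta, receptor kinases, arrestins and other regulators gave 26 tested genes of 31, and 0 of them had an unadjusted p under 0.05 in edgeR (median 0.08, with 16 above 0 and 10 below). The most abundant of these per kilobase was Adrbk1, the receptor kinase also called Grk2, at 452 ± 42.7 and 507 ± 42.0 CPM (log2 fold change 0.17, SE 0.11).

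Of 53 listed G-protein-coupled receptors 47 were tested, and 0 passed the adjusted threshold. At an unadjusted p under 0.05, 4 were higher and 1 was lower with sgZrsr2, beside 3.87% and 2.98% of all genes tested, and the median was 0.09, with 29 above 0 and 18 below. Adgre5 (named Cd97 in the table), an adhesion receptor of leukocytes, was at 25.8 ± 5.23 and 37.9 ± 4.17 CPM (log2 fold change 0.55, SE 0.16; edgeR unadjusted p = 0.00541, adjusted p = 0.714). Cnr2, a cannabinoid receptor of immune cells, read 7.46, 7.96, 2.49, 7.55 and 9.39 CPM across EV mice 1 to 5 and 15.5, 14.8, 9.66 and 13.4 CPM across sgZrsr2 mice 1, 2, 3 and 5, and was the 1 receptor of 47 whose groups did not overlap, beside 1.75% of all genes higher (log2 fold change 0.93, SE 0.32). Adora2a, an adenosine receptor, had a log2 fold change of 0.58 (SE 0.20), and S1pr1, a sphingosine-1-phosphate receptor that guides cells out of tissues, one of 0.86 (SE 0.33). Ccr2, a chemokine receptor of monocytes, was the lower one, at 139 ± 56.0 and 80.4 ± 26.2 CPM (log2 fold change -0.79, SE 0.31). Cxcr4, which holds stem cells in the marrow, was at 107 ± 37.3 and 113 ± 6.97 CPM (log2 fold change 0.08, SE 0.21). The summed monocyte and macrophage markers, of which Ccr2 is 1 of 15 tested, ran from 676 to 1290.2 CPM with EV and from 792 to 977 CPM with sgZrsr2, with 11 of 15 below 0, and their part in the value of Ccr2 was not tested. The most abundant receptor per kilobase was Adgrg1 (Gpr56 in the table), an adhesion receptor of stem and progenitor cells, at 1296 ± 246 and 1539 ± 245 CPM.

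**Figure D4:**
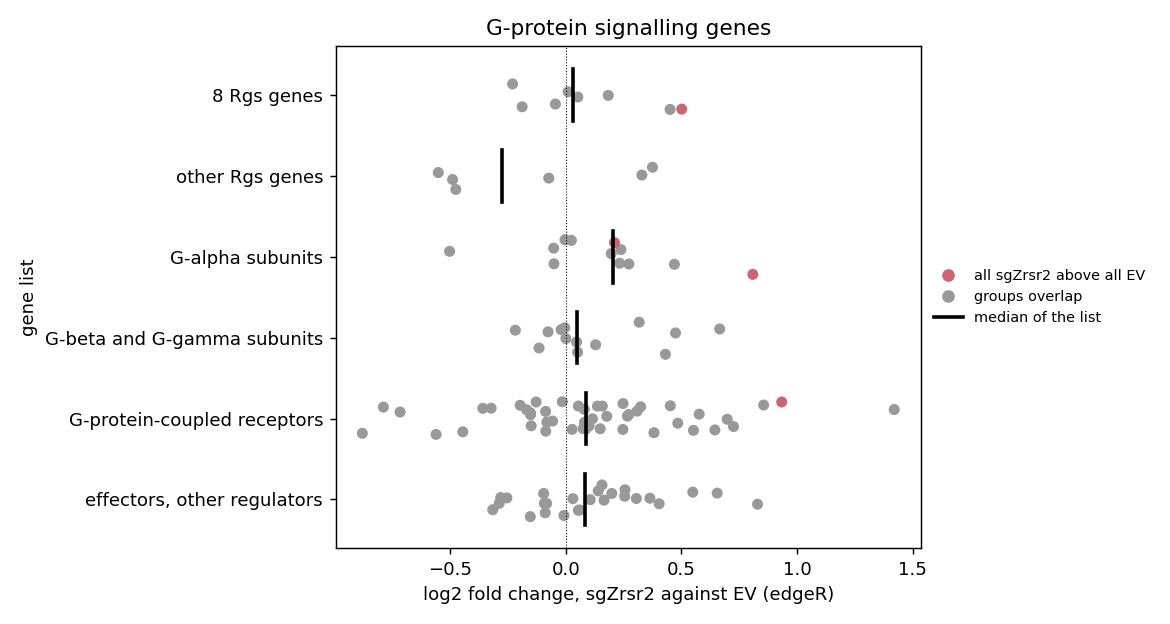
Log2 fold change of sgZrsr2 against EV (x axis, edgeR) for each tested gene of 6 lists of G-protein signalling genes (y axis; vertical position within a list has no meaning); red points are genes whose sgZrsr2 libraries all lie above the EV libraries, grey points genes whose groups overlap, and black bars list medians. Red points are Rgs12, Gna14, Gna12 and Cnr2, and the medians run from -0.27 to 0.20.

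Library totals ran from 23238264 to 45585532 expected counts, with 16188 to 19429 genes detected, and each Rgs member had at least 250 counts in every library. The targeted gene Zrsr2 was at 50.6 to 62.2 CPM with EV and 31.7 to 44.4 CPM with sgZrsr2. The LSK markers Kit and Cd34 were at 377 ± 113 and 621 ± 63.2 CPM with EV and at 491 ± 109 and 634 ± 77.01 CPM with sgZrsr2. Ly6a, the gene of Sca1, was at 33.3 ± 13.6 and 29.8 ± 6.4 CPM. Of genes that define other marrow cells, Cd3e had 3 counts, Ly6g 4 counts and Col3a1 0 counts over the 9 libraries. Other genes of such lists were present: the neutrophil gene S100a9 reached 56.9 CPM, the monocyte gene Csf1r averaged 108 and the dendritic cell gene Irf8 465 CPM with EV. T and NK cell markers summed to 59.0 to 102 CPM with EV and 70.9 to 113 CPM with sgZrsr2. Stromal and endothelial markers summed to 195 to 254 CPM and 223 to 273 CPM in the same order. B cell sums came mainly from Ighm.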

How the data were processed

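Expected counts per Ensembl gene were deposited by the authors as 1 table with 1 column per library. Reads were trimmed with cutadapt 1.11 and counted with RSEM 1.2.30 on GRCm38, as far as the submitters' processing notes name tools; the aligner, annotation release and strandedness are not given in the sources used here, and the roles of the named tools are read from what they do. Per the labels' protocols, libraries were made from 5 ng of total RNA after selection of polyadenylated RNA, with PCR. Expected counts are not normalized and were rounded to whole numbers here. Reads shared between genes are divided by RSEM, and gene sums hide isoforms and splicing. PCR without molecular identifiers adds variation between libraries.

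filterByExpr, at a minimum count of 10 and a minimum total of 15, left 14944 of 38215 genes with 99.93% of counts. They were scaled with TMM and compared with edgeR 4.0.16 (glmQLFit and glmQLFTest, R 4.3.3) with Benjamini-Hochberg adjustment, on all 9 libraries and without a replicate block. The standard error is the log2 fold change over the square root of F. The script was tested on simulated counts. Exon lengths are from GENCODE M21 (GRCm38), in which 6 of the 8 genes have the coordinates of the table. Likeness is Pearson's r of log2 CPM (prior count 2), with no p. The alternatives were RLE, upper-quartile and no composition factors, other filters, DESeq2 1.42.0, limma-voom with quality weights (limma 3.58.1), a block for the mouse number, robust dispersion, unrounded counts, and libraries left out or averaged. The genes, lists and alternatives were chosen with earlier results of these data known. Named are the 8 genes, the 5 genes most like Rgs12 and the 2 most like each other member, the nearest tested genes, and of each list the most abundant gene and those at an unadjusted p under 0.05; other named genes were chosen after their values were seen. One gene that this rule names is not reported here. Of the listed symbols 1, Rgs21, was not matched.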

Additional observations from a re-analysis of the deposited data

Results flagged for a closer look

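Rgs2 in EV mouse 3 stood far from the other EV libraries, at 363 CPM against 144 to 195 CPM. Its distance from the next library was 0.768 of the spread of the 5 EV libraries, where 0.71 is Dixon's critical value. The 8 genes in 2 groups gave 16 such tests, in which about 0.8 would pass by chance, and this was the 1 that did. The same library was the highest EV library for Rgs1 (370.2 CPM) and the lowest for Rgs3, Rgs14 and Rgs19. It had the lowest TMM factor, 0.894, whose part was not tested.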

How the results depend on the processing

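The log2 fold change of Rgs12 was 0.46 to 0.57 over the 13 alternatives and 0.45 to 0.57 without 1 library, and its sign there was set by the choice of the gene. Rgs1, Rgs3, Rgs18 and Rgs19 kept their signs in the same fits, over 0.09 to 0.86, -0.72 to -0.08, 0.15 to 0.26 and -0.42 to -0.11. None of the 7 genes other than Rgs12 passed an adjusted p of 0.05 in edgeR, limma or DESeq2 (adjusted p 0.18 to 0.9998), and limma-voom gave 3 of them an unadjusted p under 0.05, beside 2551 of all 14944 genes. The near-zero values turned sign, and the cause was not tested. That of Rgs2 was 0.020 with library totals, 0.049 with limma-voom, 0.0032 without EV mouse 3 and sgZrsr2 mouse 3, and -0.30 to 0.26 without 1 library. That of Rgs10 was -0.28 with limma-voom, -0.15 with the replicate block, -0.32 without EV mouse 5 and sgZrsr2 mice 3 and 5, -0.15 without EV mouse 3 and sgZrsr2 mouse 3, and -0.15 to 0.12 without 1 library. That of Rgs14 was -0.031 with limma-voom, -0.054 without those 3 libraries, -0.081 without those 2, and -0.016 to 0.12 without 1 library.

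Over all genes, 16 passed the adjusted threshold in DESeq2, 1 with sgZrsr2 mice 1 and 2 averaged, and 0 in edgeR without any 1 library. Of all pairs of libraries, sgZrsr2 mice 1 and 2 were the closest, with a median coefficient of variation of 2.82% over abundant genes. EV mice 1 and 2 followed at 3.77%, and the other sgZrsr2 pairs lay at 8.69% to 17.06%. The SDs and SEs given here count sgZrsr2 mice 1 and 2 as separate libraries. Genes at an unadjusted p under 0.05 numbered 1024 in edgeR, 2551 with limma-voom, 341 with the replicate block, 1692 without EV mouse 5 and sgZrsr2 mice 3 and 5, and 609 to 1292 without 1 library. Groups did not overlap for 458 genes, for 3556 and 1145 without those 3 libraries and without EV mouse 3 and sgZrsr2 mouse 3, and for 530 to 1080 without 1 library; fewer libraries make this easier. Same-numbered deviations from the group means correlated at -0.23, -0.09, -0.40 and 0.37 (mice 1, 2, 3 and 5), and mouse 5 alone correlated best with its own number. These values do not settle whether a mouse number is shared between the groups. With the number as a block the log2 fold change of Rgs12 was 0.46. The median of the other Rgs genes was 0.13 with a filter of 1 CPM in 4 libraries. The fit without EV mouse 3 and sgZrsr2 mouse 3 was added after seeing the data. Each of the 8 genes had at least 250 counts per library, and the part of depth was not tested.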
